A study of Mus musculus with 384 samples.

Results

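The cells described here are mammary luminal cells taken from mice whose luminal cells had been ablated. They were the wells labelled as luminal single cells of the doxycycline treatment, and 76 of 91 such wells were kept, out of 384 samples in the series. Wells passed with 100000 or more gene reads, 1000 or more genes and a mitochondrial share of 20% or less. Too few reads removed 12 wells, a large mitochondrial share removed 3, and the gene minimum alone removed 0. The shallowest kept well held 150410 reads and the deepest well under the minimum held 99094. The highest mitochondrial share kept was 17.2%, and the lowest share left out for it was 22.3%.

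All samples of the series, those labelled wild-type included, carry the same strain label, K8rtta/TetO-DTA/K5CreER/Rosa-Tomato mice on a mixed background. In this line doxycycline switches on a diphtheria toxin gene in cells in which the Krt8 promoter is active, and the Krt5 promoter drives a tamoxifen-activated Cre recombinase that turns on the Tomato label. The ablated mice received 0.2 mg doxycycline into the mammary duct, and their glands were taken 1 week later. Live Tomato-positive cells negative for CD45, CD31 and CD140a were sorted into 1 plate by CD29 and EpCAM and sequenced with full-length Smart-seq2 chemistry. Beside them stand 85 kept cells labelled hybrid and 71 labelled basal from ablated glands, and 43 luminal and 44 basal cells labelled wild-type, for which the labels give no doxycycline. No label names an animal, so each group counts as 1 sample, no test between groups was made, and values for other groups are set beside these only as levels. Ablation, injection, doxycycline and animal cannot be told apart.

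The duct of the mammary gland has an inner layer of luminal cells, built on the simple-epithelium keratins Krt8 and Krt18, and an outer layer of contractile basal cells, built on Krt5 and Krt14. Luminal cells are usually divided into hormone-sensing cells, which carry the estrogen, progesterone and prolactin receptors and secrete amphiregulin, and secretory or alveolar progenitor cells, which carry Kit and Elf5 and make milk proteins. Keratins work as obligate pairs of a type I and a type II chain, Krt18 with Krt8 and Krt14 with Krt5. Krt6a is a keratin of wounded and hyperproliferative epithelium, Ly6d is a small surface protein, and Aqp3 is a channel for water and glycerol.

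Both keratin pairs are central to what follows, and the genome sequence just before the RefSeq start of each of the 4 genes is printed for that reason. Krt8 and Krt18 lie side by side on chromosome 15 and are read in opposite directions. Krt5 lies on the same chromosome and Krt14 on chromosome 11. The letters are the RefSeq strand of GRCm38.p6 read 5′ to 3′ towards the RefSeq start of the gene, taken from a window of 250 bases and ending before the first base that GENCODE M21 marks as exon. The Krt14 window lies in an intron of the GENCODE transcript, which starts further upstream. Capitals mark GATAA (on either strand), AGGTCA, the core site of nuclear receptors, and CATGCCC, a core of p53-family sites.
Krt8 (chr15:102004483-102004592, minus strand): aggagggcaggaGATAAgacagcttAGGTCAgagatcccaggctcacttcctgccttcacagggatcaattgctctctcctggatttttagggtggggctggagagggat
Krt18 (chr15:102027966-102028179, plus strand): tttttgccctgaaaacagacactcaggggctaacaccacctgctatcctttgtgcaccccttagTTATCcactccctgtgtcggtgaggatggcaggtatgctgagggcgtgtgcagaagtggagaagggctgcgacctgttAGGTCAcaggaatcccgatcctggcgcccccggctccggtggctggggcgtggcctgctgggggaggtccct
Krt14 (chr11:100206031-100206280, minus strand): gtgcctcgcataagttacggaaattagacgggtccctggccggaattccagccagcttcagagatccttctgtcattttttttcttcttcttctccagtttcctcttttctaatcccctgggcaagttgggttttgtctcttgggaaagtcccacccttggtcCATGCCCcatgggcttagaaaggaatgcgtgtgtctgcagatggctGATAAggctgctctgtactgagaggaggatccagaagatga
Krt5 (chr15:101712906-101713155, minus strand): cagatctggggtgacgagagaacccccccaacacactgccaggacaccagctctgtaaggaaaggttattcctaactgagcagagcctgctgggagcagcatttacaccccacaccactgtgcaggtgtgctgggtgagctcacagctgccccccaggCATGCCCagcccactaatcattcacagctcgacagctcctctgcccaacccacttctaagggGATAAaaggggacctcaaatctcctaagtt

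AGGTCA stands before both luminal keratins, from base 225 before the start of Krt8 and from base 108 before that of Krt18, and in neither basal window. CATGCCC stands before the RefSeq start of both basal keratins, from base 87 for Krt14 and base 92 for Krt5, and in neither luminal window. For Krt14 this window lies inside the gene as GENCODE marks it. What is found or missing there describes an intron of that transcript and not the sequence before it. Of all 32817 RefSeq windows of 250 bases, 14% hold AGGTCA, 3.20% hold CATGCCC and 22.6% hold GATAA on either strand. GATAA stands in all 4 windows. Both strands were also searched for the TATA box TATAAA, which stands in 12.4% of all windows, the promoter element CCAAT (33.8%), the GC box GGGCGG (32.7%) and the AP-1 site TGANTCA (6.75%), and none had a match in the 4 windows. The motifs in capitals were picked after the sequences had been read, and a match is a description of letters only.

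The 76 cells held 86978845 reads in genes together, from 150410 to 2372768 per cell with a median of 1085297, and from 3628 to 9501 genes with a median of 6389.5. They lay on plate lines I (9 cells), J (20), K (23), L (20) and M (4). The 5 wells labelled as negative controls had 7930 to 13572 reads, and the background in wells with a cell was not measured. A level is the CPM of a gene, its reads scaled to a total of 1000000 gene reads, pooled over all 76 cells unless a range over cells is given, and its exact Poisson 95% interval covers counting error only. Detection of a gene means 5 or more reads in a cell once all cells are thinned to 100000 reads, and the exact Clopper-Pearson 95% interval of a share covers the sampling of cells only. The reads carry no molecular identifiers and may be copies of each other, so these intervals are too narrow. Immune markers summed to a median of 0.5 CPM over cells, endothelial, pericyte, adipocyte and erythroid markers to 0 and skin keratinocyte markers to 0.792. The fibroblast list had a median of 1.18 CPM, but 2 cells exceeded 1000 CPM and 4 cells detected Dcn, while Col1a1, Col3a1 and Lum stood at about 0. Their part in the results was not tested.

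The luminal label held up in the luminal keratins, though most hybrid cells carried them as well. Krt18 ran from 181 over a median of 5567 to 16937 CPM and was detected in 76 of 76 cells. Its partner Krt8 ran from 57.7 over 3502 to 11333 CPM and was detected in 75. Pooled levels were 6861 CPM (6844 to 6879) for Krt18 and 4269 (4255 to 4283) for Krt8. Epcam, the adhesion molecule used in the sort, ran from 169 over 2595 to 7365 CPM and was detected in every kept cell. Krt19, a further luminal keratin, was detected in 71 cells with a median of 3756 CPM. Of the 17 luminal keratin and junction genes, the cells detected between 7 and 17, with a median of 14. Hybrid cells detected 2 to 17 of them with a median of 13, and 81 of 85 hybrid cells detected both Krt8 and Krt18. Detection of these genes therefore does not set the cells here apart from hybrid cells. Wild-type luminal cells detected 9 to 16 of the 17 and ablated basal cells 1 to 8. The lowest cells here thus had fewer than any wild-type luminal cell and stood in the range of ablated basal cells. In 1 cell the Krt18 reads did not exceed the 122 of the highest negative well.

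The remaining 4 marker genes did not have a level typical of all cells. Krt14, the basal type I keratin, ran from 4.45 over a median of 283 to 37055 CPM. It was detected in 52 cells (68.4%, 56.7 to 78.6), and 27 cells exceeded 1000 CPM. The highest cells had 37055 and 27989 CPM and the fifth 15842 CPM, and 6 cells held 50% of its summed CPM. The low end touches background, since negative wells held 12 to 22 Krt14 reads and 16 of the 76 cells had no more than 22. Pooled Krt14 was 3920 CPM here and 3714 CPM in hybrid cells. Wild-type luminal cells, which should lack it, detected Krt14 in 4.65% of cells at the same thinned depth (100% of the ablated luminal cells detect it without thinning), with medians of 1085297 reads before thinning here and 1372883 there.

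Krt6a ran from 0 over a median of 3.05 to 3011 CPM and was detected in 25 cells (32.9%, 22.5 to 44.6; 44.7% without thinning). It had more than 1000 CPM in 7 cells and 0 reads in 20, and 4 cells held 50% of its CPM. Its near copy Krt6b had a read in 1 cell and was detected in none. How reads shared by these copies were assigned was not tested, so the split between Krt6a and Krt6b is uncertain. Wild-type luminal cells detected Krt6a in 2.33% and hybrid cells in 1.18%.

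Aqp3 ran from 0 over 2.56 to 3288 CPM and was detected in 20 cells (26.3%, 16.9 to 37.7; 40.8% without thinning), with 0 reads in 24. Negative wells held no Aqp3 read, and the highest cell alone held 26.8% of its CPM. It was detected in 0 of 43 wild-type luminal cells and in 5.88% of hybrid cells.

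Ly6d was more even, from 0.864 over 1111 to 7357 CPM, with detection in 56 cells (73.7%, 62.3 to 83.1; 92.1% without thinning), though 20 cells had no more than the 30 reads of the highest negative well. Its cells still fell apart on a log scale, with 9 cells under 10 CPM, 39 above 1000 CPM and 2 between 50 and 200. Hybrid cells detected it in 29.4% and wild-type luminal cells in 34.9%.

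**Figure D1:**
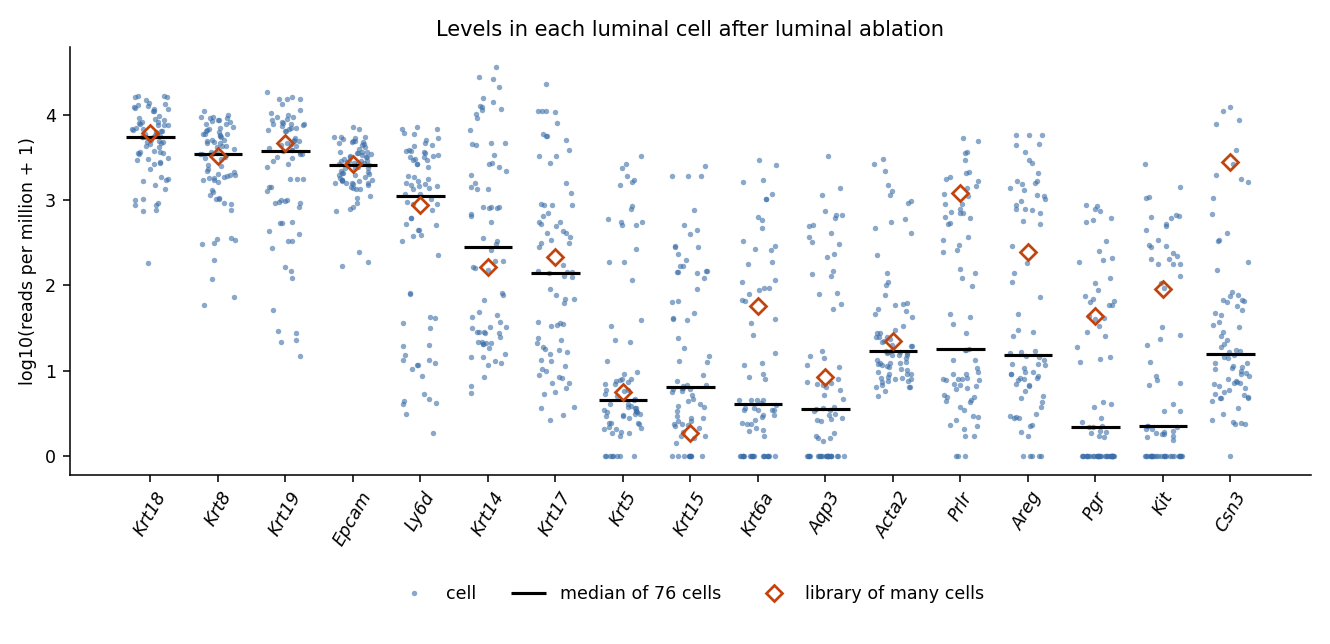
Level of 17 genes in each cell, as log10(CPM + 1); points are the 76 cells, bars their medians and open diamonds the library of many cells with the same label. Krt18, Krt8 and Epcam form 1 compact cloud each, while Krt14, Krt17, Krt5, Krt6a, Aqp3, Prlr, Areg and Kit spread from background to over 1000 CPM.

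A library of many luminal cells from the same treatment held 3511761 reads and gives a further view of the pooled level. It agreed within 1.5-fold for Krt18 (6115 CPM), Krt8 (3359) and Epcam (2690), but stood far below the pooled cells for Krt14 at 165 CPM, Aqp3 at 7.40, Krt5 at 4.56, Krt15 at 0.854 and Krt16 at 0.570. Slpi was higher there, at 5420 against 2182 CPM, and so was the casein Csn3, at 2814 against 723. Over the 7597 measured genes, the pooled cells and that library had a Spearman rho of 0.73 across genes, which are not independent replicates. At least 4-fold higher levels in the cells, with 10 CPM added to each side, were found for 14.2% of the variable genes defined below and 3.29% of the others. At least 4-fold lower levels were found for 0.354% and 0.237%. Genes were measured by their level in the cells and not in the library, and a few very high cells raise both variation and pooled level. The difference between these shares is therefore partly built in. Fewer cells of a type and less RNA per cell cannot be told apart in such a library, and the labels do not say how many cells it holds.

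Variation was measured as the coefficient of variation (CV, the SD of CPM over cells divided by its mean) and set against genes of like level. Excess variation is log2 of the squared CV minus the median over the 200 genes next below and 200 next above in mean CPM. Of 7597 measured genes (those with a mean of 10 CPM or more that 10% or more of the cells detected), 847 had an excess of at least 1 and were called variable, which is 11.1%. Housekeeping genes marked the low end. Eef1a1, the translation elongation factor, had a CV of 0.30 and levels from 1822 to 7558 CPM, and Tpt1, Oaz1, H3f3a and Naca had an excess from -4.15 to -3.61. Epcam, Krt18 and Krt8 were also less variable than genes of their level, with an excess of -1.26, -0.55 and -0.40. Krt14, Krt6a and Aqp3 had CVs of 2.03, 2.57 and 2.79 and an excess of 2.51, 2.13 and 1.97. Ly6d had a CV of 1.11 and an excess of 0.68, short of the call, and 1.01 without its highest cell. This order depended on the measure. With the SD of log2(CPM + 10) in place of the CV, the excess was 1.77 for Krt14 and 1.38 for Ly6d. Krt6a and Aqp3 had 0.37 and 0.25 and did not reach the cut-off of that measure.

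Several genes at the very top had most of their reads in 1 cell. Fxyd6, a regulator of the sodium pump, Plce1, a phospholipase, and Sap30bp had an excess of 4.8, 4.68 and 4.34, and their highest cell held 65.5%, 71.3% and 69.1% of the CPM. Without the highest cell of each gene, 10 of the 20 most variable named genes still had an excess of at least 1, among them Fxyd6 at 1.02 and Plce1 at 1.49, while Sap30bp and Nbeal1 had 0.24 and -0.36. The milk and secretory genes kept theirs. Spp1, a secreted phosphoprotein, went from 4.5 to 5.01, Csn3 from 3.56 to 3.93, and the iron binder Ltf had 3.71 with its highest cell at 28.9% of CPM. Over all genes, 357 of the 847 calls remained without the highest cell. Leaving out the 2 shallowest cells, which held 150410 and 171928 reads, kept 674 of them. A mitochondrial limit of 10% likewise left 74 cells and kept 674 of the calls, so depth and mitochondrial share were not told apart here.

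**Figure D2:**
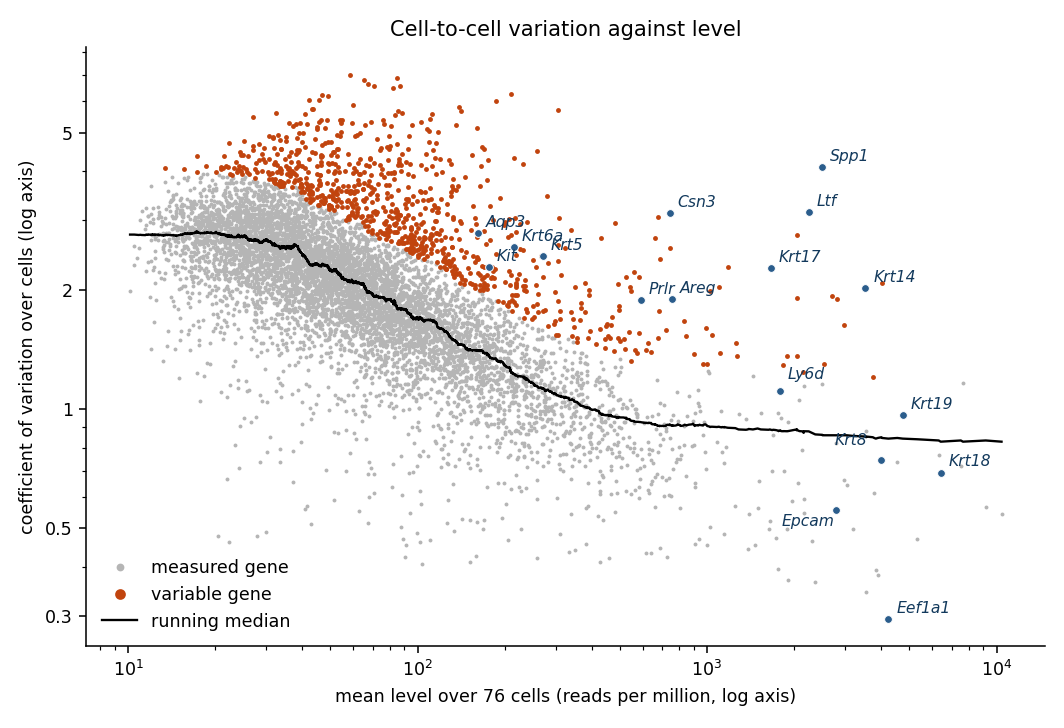
Coefficient of variation over 76 cells against mean level (CPM), both on log axes, for 7597 measured genes, with the running median in black and the 847 variable genes in orange. Blue points are named genes; Krt18, Krt8 and Epcam lie below the running median and Krt14, Krt17, Ltf and Spp1 lie well above it.

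By function, variable genes were most common in lists of lineage and state. The lists were drawn up with earlier results of these data known, and 11.1% of all measured genes is the share to read them against. Among alveolar and milk genes 10 of 13 measured members were variable, and their median excess was 1.48, against a median near 0 that the measure gives by construction. They included Kit, the receptor of luminal progenitors, the milk-fat globule protein Mfge8 (excess 1.85) and the iron and siderophore binders Trf (3.25) and Lcn2 (2.71). Among hormone-sensing genes 7 of 12 were variable, with Prlr, the prolactin receptor, at 2.05, the ligand Areg at 2.12 and Tph1, which makes serotonin, at 3.10. The receptors Esr1 (0.30) and Pgr (0.75) did not reach the call.

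Of 13 measured basal genes 9 were variable, led by Igfbp5 at 2.97, Krt17 at 2.73 and Krt14. Acta2, the smooth-muscle actin, was at 2.13, and Trp63, the basal transcription factor, at 1.2. Wound keratins and cornified-envelope genes had 5 of 9, namely Krt16 (2.64), Sprr1a (2.61), Krt6a, Krt15 (1.97) and the annexin Anxa8. Cell cycle genes had 9 of 14 and immediate early and heat shock genes 9 of 19, the latter with Dusp1 at 1.55 and Nr4a1 at 1.5.

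The other lists had smaller numbers of variable genes. The luminal keratin and junction list had 4 of 17 variable members, Spint1, Krt7, Elf3 and Ehf. TNF and NF-kB response genes had 3 of 13 and progenitor-associated genes 3 of 8, led by Lgr5 at 3.42, whose highest cell held 49.9% of its CPM. Cadherin and desmosome genes had 2 of 9, laminin and hemidesmosome genes 2 of 14, p53 response genes 2 of 9, EGFR family genes and ligands 2 of 5, interferon response genes 1 of 8 and Notch pathway genes 0 of 8. In the mesenchymal list 1 of 9 genes was measured, Vim, and it was variable. The median excess was 0.90 for the EGFR list, 0.68 for the progenitor list and 0.06 for the Notch list. Except for the Notch list, the share of variable members was above 11.1% in each of these lists, but most have few measured members. In the interferon and laminin lists a single gene decides on which side of 11.1% the share lies, so nothing is read from it. Irf7 of the interferon list went from an excess of 1.77 to 0.27 without its highest cell. Of the p53 list Mdm2 went from 2.93 to -0.20 and Trp53inp1 from 2.12 to 1.80.

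Part of the variable genes were also variable in other groups. Among genes measured in both, 112 were variable here and in wild-type luminal cells, which is 21% of the calls here and 24.1% of the calls there. With hybrid cells 146 were shared, 20% and 25% of the calls. With ablated basal cells the shared 42 were 10.4% and 13.4%, and with wild-type basal cells the shared 34 were 10.2% and 15.4%. Of all genes measured in both, 8.60% were variable in wild-type luminal, 8.51% in hybrid, 7.39% in ablated basal and 6.31% in wild-type basal cells, the shares against which 21%, 20%, 10.4% and 10.2% are to be read.

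Cells carrying transcripts of the cell cycle were a minority. Mki67, a proliferation antigen, was detected in 5 and Top2a, the mitotic topoisomerase, in 6 of 76 cells, and 2 cells held 50% of all Top2a CPM. Of 26 cell cycle genes the cells detected from 0 to 22 with a median of 1, and 14 cells (18.4%) detected 5 or more. By the same count this held for 0 of 43 wild-type luminal cells, 18 of 85 hybrid cells and 1 of 71 ablated basal cells. Of the 14 cells, 13 detected Krt14, 14 Ly6d and 6 Krt5, against 52, 56 and 18 of all 76 cells. Krt6a and Prlr were detected in 5 each and Kit in 3, against 25, 34 and 25 of all 76. The 14 cells lay on lines I (5), J (2), K (6) and L (1), which had 9, 20, 23 and 20 kept cells.

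Covariation was taken as Spearman's rho of CPM over the 76 cells, between each marker and the 4868 other measured genes detected in at least 20% of cells. The cells share a plate and a library preparation and differ in depth, and rho is given as a description. Over all pairs of these genes the median rho was 0.05 and the middle range between the quartiles was -0.04 to 0.13. A gene was said to covary with a marker at a rho of at least 0.4 or at most -0.4.

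The luminal keratins moved as a pair. Krt8 and Krt18 had a rho of 0.82 (0.70, 0.85 and 0.72 within plate lines J, K and L). Genes covarying positively numbered 21 with Krt18, which is 0.431% of those tested, and 21 with Krt8, likewise 0.431%. Closest to Krt18 after Krt8 were the tight-junction claudin Cldn4 at 0.59 and Krt19 at 0.55, and for Krt8 they stood at 0.64 and 0.69. On the negative side were 14 genes (0.288%) for Krt18 and 9 (0.185%) for Krt8. They were led by the cartilage-type collagen Col9a3 at -0.51 and -0.55, with the ferritin chain Fth1 at -0.44 and Spp1 at -0.47 for Krt8, and the kinase Cdk6 at -0.42 for Krt18. H2-Q10, at 0.46 with each keratin, has close copies among histocompatibility genes, so its reads are uncertain.

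Krt14 and Krt5 formed the other pair, with a rho of 0.66 (0.65, 0.81 and 0.27 within lines J, K and L, with Krt5 detected in 1 cell of L). They were detected together in 18 cells, Krt14 alone in 34, Krt5 alone in 0 and neither in 24. Krt5 ran from 0 over 3.52 to 3276 CPM, and in the 18 cells with more than 50 CPM of Krt5, Krt14 stood at 804 CPM or more. Krt17, a basal and wound keratin, followed Krt14 at 0.58 and was detected with it in 40 cells. Of Krt14, Krt5 and Krt17, 16 cells detected none, 20 detected 1, 22 detected 2 and 18 all 3. Trp63 was detected in 12 cells, all of which detected Krt14, with a rho of 0.46.

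Genes of the contractile apparatus differed in how they went with Krt14. The tropomyosin Tpm2, detected in 52 cells, had a rho of 0.36 with Krt14, and Acta2 had a rho of 0.05 with Krt14, against 0.40 in hybrid and 0.45 in wild-type luminal cells, where Krt14 itself stood near background. Its median of 15.8 CPM here is at the level of the negative wells, which held 17 to 47 reads, and 57 of 76 cells had no more than 47 reads. In 6 cells it exceeded 1000 CPM. The remaining contractile genes of the basal list were detected in few cells, Mylk in 11, Myl9 in 8, Cnn1 in 7, Myh11 and Tagln in 4 each and Actg2 in 1, and the oxytocin receptor Oxtr in 4, too few for a rho. Of 18 basal genes the cells detected 0 to 14 with a median of 4, where hybrid cells detected 5 to 18 with a median of 14.

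Genes covarying with Krt14 numbered 33 positively (0.678%) and 14 negatively (0.288%). Among the highest were Pxdc1 at 0.61, the secreted ribonuclease Rnase4 at 0.57, Cald1, an actin-binding caldesmon, at 0.56 and the desmosomal Perp at 0.52. Ifi202b, at 0.58, belongs to a family of near copies and is uncertain. The lowest rho of all was with Cited1, a transcriptional co-regulator of hormone-sensing luminal cells, at -0.63. That relation was found in each plate line with at least 10 cells, at -0.82, -0.77 and -0.66 in J, K and L, and 15 cells detected both genes. Krt19 stood at -0.49, the melanophilin Mlph at -0.48 and the tetraspanin Tspan1 at -0.44.

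Krt14 and Krt18 were inversely related but not exclusive. All 52 cells that detected Krt14 detected Krt18, and the rho was -0.43. It was -0.66 in line J, -0.60 in line K and -0.01 in line L, and -0.39, short of the call, without the highest cell of either gene. In L the level of Krt14 was low, with a median of 71.2 CPM against 1102 in J and 3399 in I. With median-of-ratios scaling the rho was -0.39, again short of the call. Krt14 and Krt8 had a rho of -0.38, with -0.54, -0.56 and 0.28 in lines J, K and L. Krt14 and Krt19 had -0.49, with -0.71, -0.62 and 0.21.

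**Figure D3:**
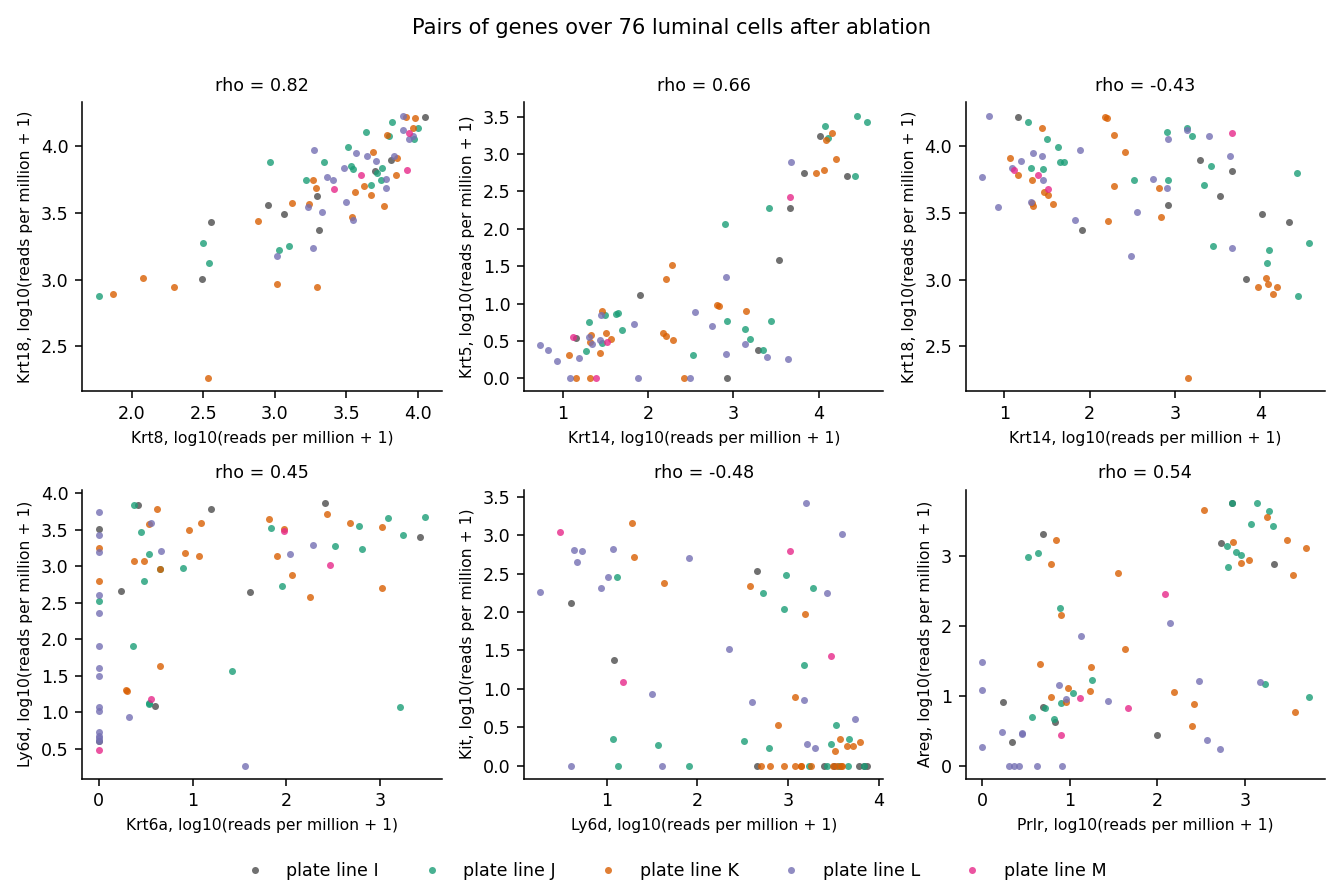
Levels of 6 pairs of genes in each of 76 cells, as log10(CPM + 1) on both axes, coloured by plate line, with Spearman's rho above each panel. Krt8 and Krt18 lie along a diagonal, Krt5 is above background in cells high in Krt14, and Kit and Ly6d are rarely both high.

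Over all cells Ly6d covaried with Krt6a and with Aqp3, and none of the 3 genes covaried with Krt14 or Krt18. Krt6a and Ly6d had a rho of 0.45, and 23 of the 25 cells that detected Krt6a detected Ly6d. Ly6d and Aqp3 had a rho of 0.44, and 19 of the 20 cells with Aqp3 detected Ly6d. Krt6a and Aqp3 stood at 0.35, short of the call, with 10 cells detecting both. All 3 values were lower within plate lines, as the means of the rho within lines J, K and L were 0.26, 0.24 and -0.07 for the 3 pairs. Krt6a and Aqp3 had -0.08, -0.09 and -0.06 in J, K and L, so their relation was absent within each of these lines. Ly6d and Aqp3 had 0.43, 0.09 and 0.21. Line L had 0 of 20 cells with Aqp3 and 3 with Krt6a, and line K 10 and 9 of 23. Against Krt14 the 3 genes had a rho of 0.11 (Krt6a), -0.01 (Ly6d) and 0.24 (Aqp3), and against Krt18 of 0.02, -0.21 and -0.15. In wild-type luminal cells Ly6d and Krt18 stood at 0.47.

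Krt6a covaried positively with 33 genes (0.678%) and negatively with 7 (0.144%). The zinc transporter Slc30a4 led at 0.51, followed by Lamtor1, a lysosomal scaffold of nutrient signalling, and the adiponectin receptor Adipor1 at 0.49 each, and the actin regulators Cotl1 (0.47) and Rac1 (0.46). Krt16, which joins Krt6a in wounded skin, stood at 0.35. Krt6a also had a rho of 0.30 with gene reads, the highest among the 6 markers.

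Ly6d covaried positively with 35 genes (0.719%) and negatively with 13 (0.267%). Glutathione reductase (Gsr) stood at 0.55, the water channel Aqp5 at 0.53, the adhesion molecule Alcam at 0.51 and the caveolin Cav2 at 0.50. Aqp3 covaried with 22 genes positively (0.452%) and 18 negatively (0.37%). Embigin (Emb), a chaperone of lactate transporters, led at 0.59, followed by 2 enzymes against oxidative stress, sulfiredoxin (Srxn1) at 0.56 and Gsr at 0.50, and by the protease inhibitor Timp1 at 0.49.

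How many genes covaried depended on the scaling and on plate line. With median-of-ratios scaling the positive counts were 14 for Krt6a, 16 for Ly6d and 13 for Aqp3, and as the mean within lines 18, 26 and 9, while Krt14 had 32 and 33. For Krt8 the negative count was 24 with that scaling and 5 within lines, and the positive one 12 and 46.

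The negative sides of Krt6a, Ly6d and Aqp3 had genes in common. Muc15, a membrane mucin, stood at -0.47 with Krt6a, Ly6d and Aqp3 alike, and the whey-acidic-protein-type Wfdc18 at -0.45, -0.47 and -0.46. Kit stood at -0.48 with Ly6d and -0.35 with Krt6a, and Ltf at -0.44 with Krt6a. Within lines J, K and L the rho of Ly6d and Wfdc18 was -0.37, -0.56 and -0.43. Other pairs were weaker within lines than over all cells. Ly6d and Kit had -0.23, -0.36 and -0.16, and Krt6a and Muc15 had -0.14, -0.31 and -0.38. Krt6a and Kit had -0.02, -0.24 and -0.20.

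Gene groups were then formed without markers. The 300 genes of highest excess variation among those detected in at least 20% of cells were joined by average linkage on 1 minus rho, and a cut at 0.65 gave 3 groups of at least 8 genes. Since the groups were formed by rho in these cells, high values inside them are not a result. Gene group 1 has 18 members, among them Wfdc18, Muc15, Ltf, Kit, Mfge8, Fcgbp, Lcn2, Csn3 and Trf, which are genes of secretory luminal cells, with Fosb and Nr4a2, which are immediate early genes. Gene group 2 has 17 members, among them Prlr, Areg, Cited1 and Ly6a of the hormone-sensing list, the tissue factor F3, stanniocalcin Stc2, glutathione peroxidase Gpx3, haptoglobin Hp, Aqp5 and transglutaminase Tgm2. Gene group 3 has 8 members, Krt14, Krt5, the hemidesmosomal collagen Col17a1, Moxd1, Pla2g7, Spp1, the protease inhibitor Slpi and Col9a3.

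**Figure D4:**
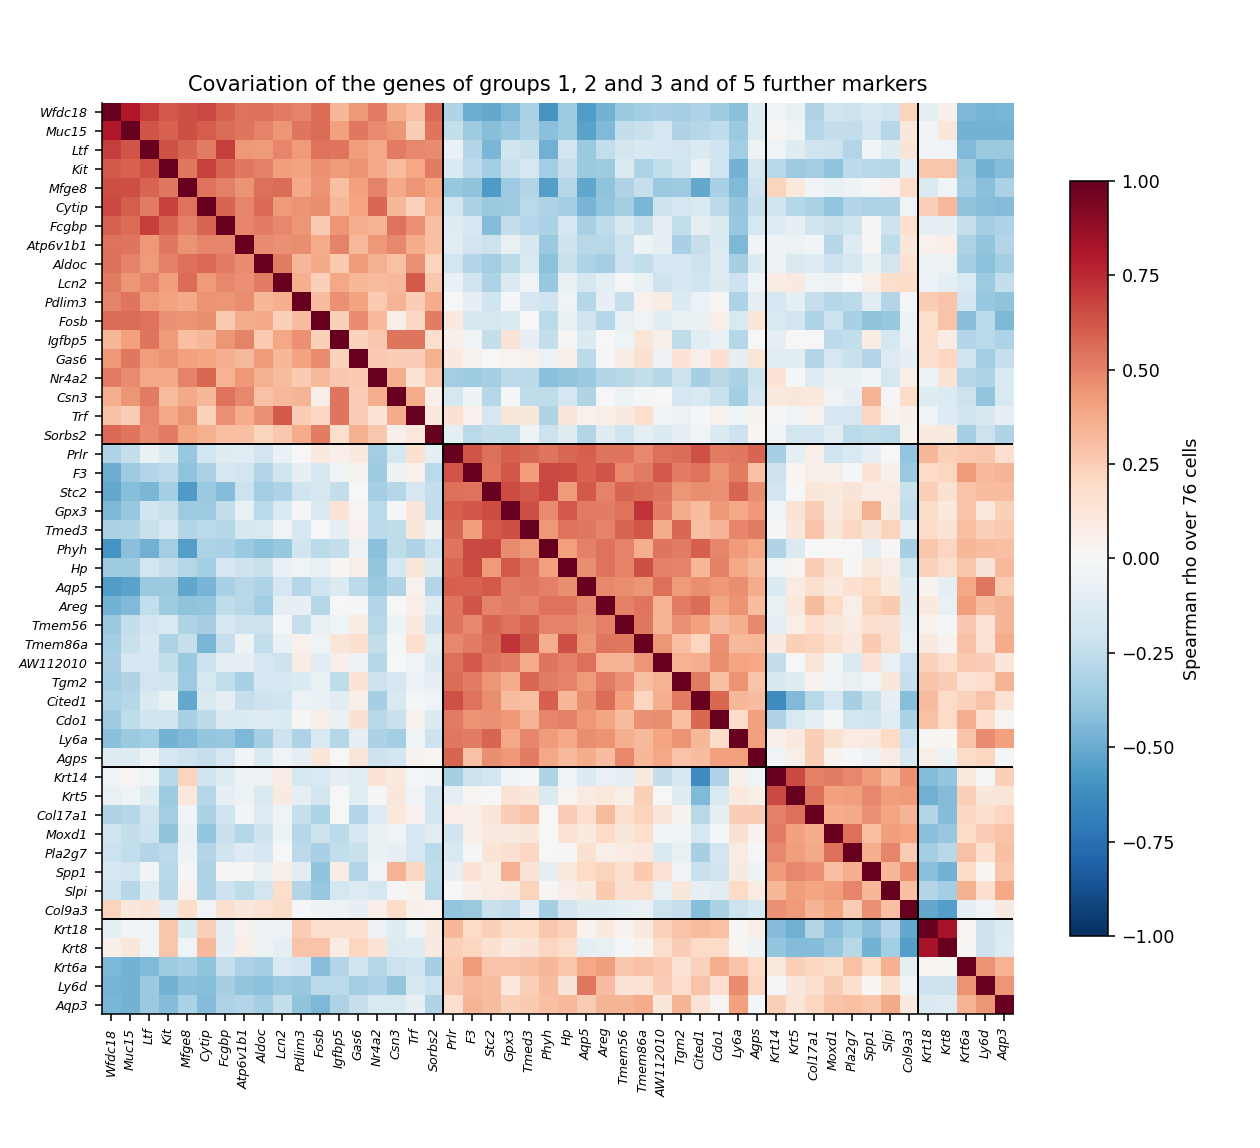
Spearman's rho over 76 cells between the 43 genes of gene groups 1, 2 and 3 (divided by black lines) and 5 further marker genes, from blue (-1) to red (1). Genes of gene groups 1 and 2 are mostly negative to each other, and Krt6a, Ly6d and Aqp3 are blue against gene group 1 and pale red against gene group 2.

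Cells of other labels did not enter the grouping. In wild-type luminal cells the members of gene group 1 had a median rho of 0.36, with 133 of 153 pairs above 0, and those of gene group 2 of 0.46, with 103 of 105 pairs above 0 among the 15 members detected in at least 20% of cells. In hybrid cells the medians were 0.29 (149 of 153 pairs above 0) and 0.27 (101 of 105). In ablated basal cells 8 members of gene group 1 could be compared, with a median of 0.08, and 2 of gene group 2. The groups depended on how they were formed. Of the 18 members of gene group 1, 9 stayed in 1 group with linkage at 0.55 and with 600 genes, 10 with 150 genes and 14 on thinned counts, and of the 17 of gene group 2 the numbers were 15, 17, 11 and 14. None of gene group 3 were grouped on thinned counts, with 150 genes or with linkage at 0.55. Members of gene group 3 had a median rho of 0.12 in hybrid cells, 0.11 in ablated basal cells and 0.04 in wild-type basal cells, and 1 of its 8 members was detected in at least 20% of wild-type luminal cells. Spp1, a member here with a rho of 0.42 to Krt14, stood at -0.39 to Krt14 in hybrid cells. Spp1 had 33% of its CPM in 1 cell, and negative wells held a mean of 142 Spp1 reads.

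Markers that were no members of the gene groups were also set against the group scores. Muc15 and Wfdc18 of gene group 1 were already among the genes most negative to Ly6d, Aqp3 and Krt6a, as was Col9a3 of gene group 3 to Krt8 and Krt18. The values for these markers are thus no separate evidence. The score of gene group 1, the mean of log2(CPM + 10) over its members, had a rho of -0.56 with Ly6d, -0.47 with Aqp3 and -0.45 with Krt6a, and of 0.05 with each of Krt8 and Krt18. The score of gene group 2 had 0.65 with Esr1, 0.59 with Pgr, 0.48 with Ly6d and 0.44 with Krt6a. The score of gene group 3 had -0.53 with Krt8, -0.48 with Krt18 and -0.52 with Krt19. None of these values was taken within plate lines or with depth taken into account. The score of gene group 1 had a median of 7.73 in line L and 7.49 in M, against 4.85, 4.88 and 4.72 in I, J and K. Esr1 had a rho of 0.53 with the number of genes detected. In the fixed lists the hormone-sensing score and the alveolar and milk score had a rho of -0.48, and of -0.37 as the mean within plate lines. The alveolar and the progenitor-associated scores had 0.57, and the wound list had 0.53 with the desmosome list and 0.57 with the laminin list.

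Single genes of both luminal programs were detected in the same cells in part. Prlr ran from 0 over 16.7 to 5353 CPM and was detected in 34 cells, and Kit from 0 over 1.23 to 2656 CPM in 25 cells. They were detected together in 9 cells, Prlr alone in 25, Kit alone in 16 and neither in 26, with a rho of -0.14 over all cells and of 0.43, -0.14 and 0.10 in lines J, K and L. Pgr, detected in 22 cells, and Elf5, the alveolar transcription factor, detected in 9, were found together in 0 cells. Pgr and Prlr had a rho of 0.59, and of 0.74, 0.75 and -0.20 in lines J, K and L.

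Placed by the scores of gene groups 1 and 2, wild-type luminal cells fell into 2 separate clouds and the cells after ablation did not. Among the 43 wild-type luminal cells, 31 had a score of gene group 1 of at least 7.81 and one of gene group 2 of at most 5.98. The other 12 had a score of gene group 2 of at least 8.48 and one of gene group 1 of at most 5.55. With these lower ends as limits, 20 of the 76 cells after ablation were high in gene group 1 only, 15 in gene group 2 only and 1 in both. The remaining 40 (52.6%, 40.8 to 64.2) were below both limits, where 0 of 43 wild-type luminal cells lay by construction. The score of gene group 3, which holds Krt14 and Krt5, did not enter this division. Some of these 40 cells were high in it, such as those with 11.5 and 10.5, and others low, such as a cell with 4.27. Wild-type luminal cells had at most 6.36. The limits were set after the scores had been seen, they cut a continuous range, and 7 and 5 cells lay within 0.5 of them. On thinned counts the same division gave 20, 15, 1 and 40 cells. Hybrid cells had 39 high in gene group 1 only, 2 in gene group 2 only and 44 in neither, and all 71 ablated basal cells lay below both.

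A count of detected genes was made in place of the scores, from lists that share genes such as Prlr, Areg, Cited1, Kit and Ltf with the gene groups. Of 14 hormone-sensing and 19 alveolar and milk genes, 26 cells after ablation detected at least 5 of the former and 20 at least 8 of the latter, 3 did both and 33 neither. In wild-type luminal cells the numbers were 12, 32, 1 and 0 of 43. These thresholds too were set after the values had been seen, and with the shared genes the count is no separate evidence for the division by scores.

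Plate line moved with both scores. Line L had 10 of 20 cells high in gene group 1 only and 0 high in gene group 2. Line J had 3 and 7 of 20 and line K 4 and 6 of 23, and cells below both limits were 9, 13 and 10 in J, K and L. The scores of gene groups 1 and 2 had a rho of -0.45 over all cells, of -0.42 within K, but of -0.12 within L and 0.08 within J. Kit was detected in 11 cells of L and in 5 each of J and K, and Prlr in 5, 11 and 13. Whether the lines hold cells of different animals is not given in the labels, and the part of plate line was not tested. The score of gene group 2 also went with the number of genes (rho 0.45) and with the mitochondrial share (-0.42), and with genes and reads taken into account the 2 scores had a rho of -0.47.

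**Figure D5:**
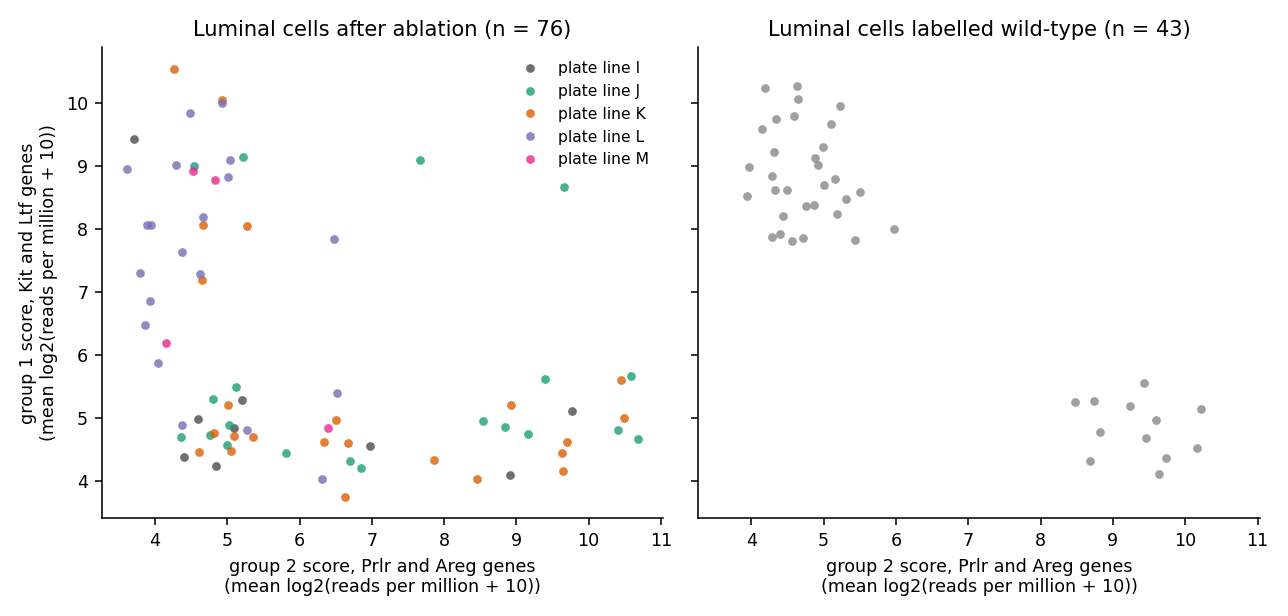
Score of gene group 1 against that of gene group 2, each the mean of log2(CPM + 10) over its genes, for 76 luminal cells after ablation (left, coloured by plate line) and 43 luminal cells labelled wild-type (right). The wild-type cells form 2 clouds, with 31 cells at upper left and 12 at lower right, while 40 of the 76 cells after ablation lie below the lower ends of both clouds.

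The 6 marker genes lie at these places in GRCm38 with GENCODE M21. Krt18 (ENSMUSG00000023043.6) spans 102028180 to 102032027 on chromosome 15, and Krt8 (ENSMUSG00000049382.9) spans 101996698 to 102004482 there. Krt6a (ENSMUSG00000058354.6) spans 101689910 to 101694307 and Ly6d (ENSMUSG00000034634.7) spans 74762056 to 74763620, both on chromosome 15. Krt14 (ENSMUSG00000045545.8) spans 100203162 to 100207548 on chromosome 11, and Aqp3 (ENSMUSG00000028435.8) spans 41092722 to 41098183 on chromosome 4.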

How the data were processed

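The authors deposited raw counts of reads for each gene in each well, judged from the whole numbers and unequal totals of the columns. According to the submitters' processing notes the tools were HTSeq 0.6.0, STAR 2.5.2b, Seurat and cutadapt 1.13 with GRCm38, their roles unstated, and no source used here gives the version of the annotation. Of 49585 gene rows, 49326 were matched to a symbol, and 92 spike-in rows, which summed to 11 reads, stayed out. Each well was its own library. The library kit is not described as marking strand, so overlapping genes on opposite strands cannot be told apart.

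From the counts, CPM, CV, excess variation and Spearman's rho were computed with numpy 2.4.6 and scipy 1.17.1 in Python 3.11.15 as the report describes. Wells were grouped by label. Wells that caught more than 1 cell were not searched for. The steps were tested on simulated counts. Members, gene lists and gene pairs were chosen with earlier results of these data known, and 30 of the pairs after their values here had been seen. Named genes were the markers, 20 fixed lineage genes, the 20 genes of highest and 10 of lowest excess at 50 CPM or more, the 4 most variable and 2 most abundant genes of each of 23 lists, the 6 highest and 4 lowest rho per marker among genes detected in at least 25% of cells, and the 8 leading genes of each gene group. Other genes of the lists, added pairs and gene groups, the score limits and 3 of the motifs were chosen after their values or letters were seen. Alternatives changed the filters, the scaling, the pseudocount, thinning, the correlation and the grouping, and took rho within plate lines.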

Additional observations from a re-analysis of the deposited data

Results flagged for a closer look

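Among the 5 wells labelled as negative controls, 1 value stood apart from the other 4 for 2 of the genes examined, which were the 6 markers, Acta2, Csn3, Spp1 and Ltf. Csn3, the kappa-casein, had 341 reads in 1 negative well and 43 to 76 in the other 4. Krt6a had 1 read in 1 negative well and 0 in the other 4, a difference of a single read, and any single read beside wells at 0 would be picked out in this way. For spread-out values such as those of Csn3, the cut-off used is passed by chance in about 1 of 20 groups if values are normally distributed. Read counts need not be, and Csn3 lay beyond the cut-off. The Csn3 background touches the values above, since 64 of the 76 cells had no more than 341 Csn3 reads.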

How the results depend on the processing

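Of the marker levels recomputed, 44 stayed within 1.5 times the reported value and 4 did not, those of Krt6a, Krt14, Ly6d and Aqp3 in the library of many cells. Shares of cells moved beyond their interval in 10 of the cases, with the read minimum for detection or without thinning: Krt14 went from 68.4% to 51.3% at 20 reads and 92.1% at 1 read. Against 847 variable genes, 434 were called when detection in at least 25% of cells was asked for (392 shared). The SD of log2(CPM + 10), with a cut-off of its own, gave 88 (73 shared). Leaving out the highest cell of each gene gave 421 (357 shared). Another 5 settings gave 638 to 876. The rho of Krt14 and Krt18 went from -0.43 to -0.39 with median-of-ratios scaling and to -0.39 without the highest cell of either gene, which ends the call, and that of the hormone-sensing and alveolar scores from -0.48 to -0.37 within plate lines. The number of gene groups went from 3 to 6 with the looser linkage at 0.75. It was 2, without gene group 3, with linkage at 0.55, with 150 genes or on thinned counts, and 3 with 600 genes, and gene group 1 lost up to 9 of its 18 members. Of the values of rho, 464 stayed on their side of the call and, where not called, within 0.1. Of the rest, 27 moved, 18 lost the call and 9 gained it, and none changed sign while called. Plate lines entered these counts only as the mean over J, K and L. Within line L some called pairs did change sign, such as Pgr and Prlr (0.59 over all cells, -0.20 in L) and Krt14 and Krt19 (-0.49 and 0.21). The cause of these changes was not tested. Depth limits genes of low level, since a gene seen in a few cells cannot be told from one missed in the others. No paired analysis was possible because the labels give no animal or shared replicate and no test between groups was made.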
